A study of Mus musculus with 9 samples.

Results

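The tumor necrosis factor (TNF) superfamily ligands and receptors other than TRAIL and its receptors were examined in CD4+ T cells. The members were all genes of the deposited expression table named Tnfrsf or Tnfsf, together with Cd27, Cd40, Cd40lg, Fas, Fasl, Lta, Ltb, Ltbr, Cd70 and Ngfr. Tnfsf10, which encodes TRAIL, the TRAIL receptor Tnfrsf10b, Tnfrsf22, Tnfrsf23, Tnfrsf26 and antisense genes were left out. This gave 37 of the 55487 genes listed, 16 ligands and 21 receptors. Tnf itself carries another kind of name and was not a member. Its values are given beside the signaling genes.

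RNA-seq was performed on splenic CD4+ T cells of wild type C57BL/6 mice. The mice were female and 6 to 7 weeks old. The cells were enriched from spleens with a commercial isolation kit for mouse CD4+ T cells. The study compared 3 groups of 3 libraries to learn how TRAIL alters the transcriptome of T cells during activation. The medium group was left without Abs, the activated group was exposed for 24 h to Abs against CD3 at 3 µg/ml and against CD28 at 2 µg/ml, and the TRAIL-treated activated group received the same Abs for 24 h together with TRAIL (10 µg/ml). How long the medium cells were kept is not given in the sources used here, nor whether the 3 libraries of a group came from separate mice, so that p-values measure the spread between these libraries, which may be technical. Cells lacking TRAIL-R, and TRAIL in the absence of Abs, were not analysed here. All values are TPM, a measure of transcript abundance scaled by gene length and to a fixed total per library, and the number of reads behind each value is unknown.

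Ligands of the TNF superfamily are mostly trimeric proteins of the cell membrane, and several can be shed in soluble form. Their receptors signal through TRAF adaptors to NF-kB and MAP kinases, and a subset carries a death domain in its cytoplasmic tail that can recruit caspases. On T cells the costimulatory receptors, among them OX40 (Tnfrsf4), 4-1BB (Tnfrsf9), GITR (Tnfrsf18), CD30 (Tnfrsf8) and CD27, follow signals from the T cell receptor and CD28 and prolong proliferation and survival. T cells in turn carry ligands such as CD40 ligand, Fas ligand, lymphotoxins and RANK ligand (Tnfsf11), by which they act on B cells, dendritic cells and other targets.

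The libraries held RNA of other spleen cells at levels that differed between the groups. A list of 10 T cell markers summed to 3466 to 3796 TPM in medium, 3405 to 3717 TPM in activated and 3474 to 3823 TPM in TRAIL-treated activated libraries, and all 10 markers were at 1 TPM or more in every library. Within that list Cd3g, at 615, 299 and 595 TPM, was called lower and Cd2, at 392, 839 and 446 TPM, higher on activation, Cd4 averaged 384, 220.4 and 384 TPM, and none was called in the other comparisons. A list of 10 B cell markers summed to 2404 to 2514 TPM in medium, 198 to 219 TPM in activated and 997 to 1132 TPM in TRAIL-treated activated libraries. A list of 14 myeloid markers ranged from 2326 to 2611, from 75.7 to 95.0 and from 1731 to 1996 TPM in the same order, and 7 dendritic cell markers ranged from 61.6 to 65.9, from 9.76 to 13.3 and from 37.3 to 40.6 TPM. The 6 erythroid markers summed to 2081 to 2534, 24.8 to 39.6 and 610 to 660 TPM. For 6 stromal and endothelial markers the sums were 207 to 219, 49.5 to 69.9 and 172 to 199 TPM. Most of these was Pecam1, at means of 209, 61.3 and 184 TPM, and only 2 of the 6 were tested. In bulk RNA, fewer cells of a type and less RNA per cell cannot be told apart. The part of these other cells in the results on individual members was not tested, and marker values are given again in the account of the receptors and ligands best known from such cells.

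Of the 37 members, 34 reached 1 TPM in at least 3 libraries and were tested, 14 ligands and 20 receptors. BAFF (Tnfsf13b), a B cell survival factor, reached at most 1.16 TPM in a library, the TL1A gene Tnfsf15 at most 0.319 TPM, and the osteoprotegerin gene Tnfrsf11b, a soluble decoy receptor, at most 0.256 TPM. A gene was called higher or lower at an adjusted p below 0.05 together with a change of at least 1 on the scale of log2(TPM + 1), using limma across 15536 genes with Benjamini-Hochberg adjustment. This scale understates changes of genes near or below 1 TPM. All fold changes of log2 values below are on this scale, whereas ratios are of group means in TPM.

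The receptors that changed most on activation lay on chromosome 4. Tnfrsf4 (chr4:156013843-156016612) and Tnfrsf18 (chr4:156026164-156028895, GRCm38) were direct neighbours among the members, with 9.6 kb between them on the same strand. Tnfrsf8 (chr4:145267137-145315164) lay 20.3 kb from Tnfrsf1b (chr4:145213463-145246870), and Tnfrsf9 (chr4:150914562-150946102), Tnfrsf25 and Tnfrsf14 were spread between these pairs. Their RefSeq promoters (build GRCm38.p6, from 250 bases before to 50 bases after an annotated start, on the strand of the gene) are shown because these 4 genes had the largest differences on activation. They were searched on both strands for a kB form, which reads GGG, any pair of bases and TTTCC, and for an AP-1 form, TGANTCA. The matches in the windows shown do not overlap each other. Capitals mark the matches.

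Tnfrsf4, chr4:156013445-156013744, plus strand: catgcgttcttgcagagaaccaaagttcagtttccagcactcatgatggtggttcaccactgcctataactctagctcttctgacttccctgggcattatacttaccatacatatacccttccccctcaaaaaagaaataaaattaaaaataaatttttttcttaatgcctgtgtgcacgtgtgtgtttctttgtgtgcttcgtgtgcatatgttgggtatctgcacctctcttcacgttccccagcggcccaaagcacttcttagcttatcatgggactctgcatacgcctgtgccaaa

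Tnfrsf18, chr4:156026072-156026371, plus strand: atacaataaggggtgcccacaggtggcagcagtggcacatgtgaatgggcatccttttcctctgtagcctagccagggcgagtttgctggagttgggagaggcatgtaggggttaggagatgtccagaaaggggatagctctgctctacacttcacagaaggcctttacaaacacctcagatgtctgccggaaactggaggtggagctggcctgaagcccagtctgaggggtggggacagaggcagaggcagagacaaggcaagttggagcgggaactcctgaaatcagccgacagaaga

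Tnfrsf9, chr4:150927749-150928048, plus strand: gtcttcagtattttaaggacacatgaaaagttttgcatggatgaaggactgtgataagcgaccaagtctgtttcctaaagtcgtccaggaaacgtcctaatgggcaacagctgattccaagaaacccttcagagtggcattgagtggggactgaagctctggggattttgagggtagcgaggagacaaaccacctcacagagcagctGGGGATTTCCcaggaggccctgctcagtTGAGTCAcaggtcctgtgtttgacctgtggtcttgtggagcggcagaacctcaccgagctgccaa

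Tnfrsf8, chr4:145315115-145315414, minus strand: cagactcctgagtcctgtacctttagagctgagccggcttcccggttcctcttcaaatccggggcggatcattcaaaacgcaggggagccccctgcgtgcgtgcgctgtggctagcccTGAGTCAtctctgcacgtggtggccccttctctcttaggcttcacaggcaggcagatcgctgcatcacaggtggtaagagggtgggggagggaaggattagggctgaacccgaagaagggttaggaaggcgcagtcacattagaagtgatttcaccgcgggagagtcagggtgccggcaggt

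The Tnfrsf9 window held both forms, GGGGATTTCC and TGAGTCA, the Tnfrsf8 window held TGAGTCA, and the windows of Tnfrsf4 and Tnfrsf18 held neither. A second RefSeq start of Tnfrsf9 held neither form. Its window (chr4:150919905-150920204), which is not shown, lay nearer the gene start in the deposited table than the window shown. The RefSeq start used for Tnfrsf4 lay upstream of the gene start in the deposited table, whereas the Tnfrsf9 window shown belongs to a start inside the gene as the table gives it, downstream of its start at position 150914562. Of 34 promoter entries for 30 members, 3 (8.82%) held the kB form, at Ltb, Tnfrsf25 and Tnfrsf9, against 1.63% of all 32851 promoters. The AP-1 form was found in 7 of the 34 entries (20.59%), belonging to Fas, Tnfrsf8, Tnfrsf9, Tnfsf13, Tnfsf13b and Tnfsf14, against 7.81% of all promoters. Both Tnfsf13b entries hold the same site in overlapping windows, so that it is counted 2 times in this share, and by gene the form was found at 6 of 30 members. A match is a description of letters and not of binding. Entries were not found for Tnfrsf11b, Cd70, Cd40, Tnfsf9, Cd40lg, Tnfsf12 and Tnfsf4.

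Activation changed most of the measured family. Against medium, 10 of the 34 members were higher and 12 were lower in activated T cells, 64.7% of the members, whereas 31.9% of all genes tested were called in either direction, 12.4% higher and 19.5% lower. Among the 20 receptors 4 were higher and 6 lower, and among the 14 ligands 6 were higher and 6 lower. The median change over the members was -0.30 on the log2 scale, beside -0.15 for all genes. Rescaled by median of ratios the median of all genes was -0.01, and quantile normalized it was 0.04, where all genes divided into 2434 higher and 2240 lower in place of 1926 and 3033, so that changes are best read against these values. Groups did not overlap for 32 of the 34 members, beside 72.6% of all genes.

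TRAIL-treated activated T cells differed from activated T cells in a comparable number of members. Here 12 of 34 members were higher and 11 were lower, 67.6% of the members, whereas 30.9% of all genes were called, 16.6% higher and 14.3% lower. The receptors gave 6 higher and 5 lower and the ligands 6 higher and 6 lower. The 32 members whose groups did not overlap stood beside 70.4% of all genes. Against medium, TRAIL-treated activated T cells had 3 members higher and 2 lower, 14.7% of the members, whereas 4.62% of all genes were called, 2.49% higher and 2.13% lower. In that comparison the median of all genes was -0.18, which either other scaling brought to -0.02 (median of ratios) or -0.04 (quantile), and the members then divided into 5 higher and 1 lower under both. The 21 members whose groups did not overlap stood beside 50.6% of all genes. Without a threshold on size, 14 members were higher and 17 lower on activation (68.7% of all genes were called), 18 higher and 15 lower with TRAIL (67.1%), and 9 higher and 9 lower between TRAIL-treated activated and medium libraries (32.6%). With a pseudocount of 5 in place of 1, which shrinks low genes, the calls of Tnfrsf21, Tnfrsf17, Tnfrsf11a, Ngfr, Ltbr, Tnfsf14, Tnfsf4, Cd70, Tnfsf12, Tnfsf13, Tnfsfm13 and Tnfsf18, of Tnfsf9 with TRAIL and of Cd40 against medium were lost. The 3 comparisons share libraries, so each is described by its own values.

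**Figure D1:**
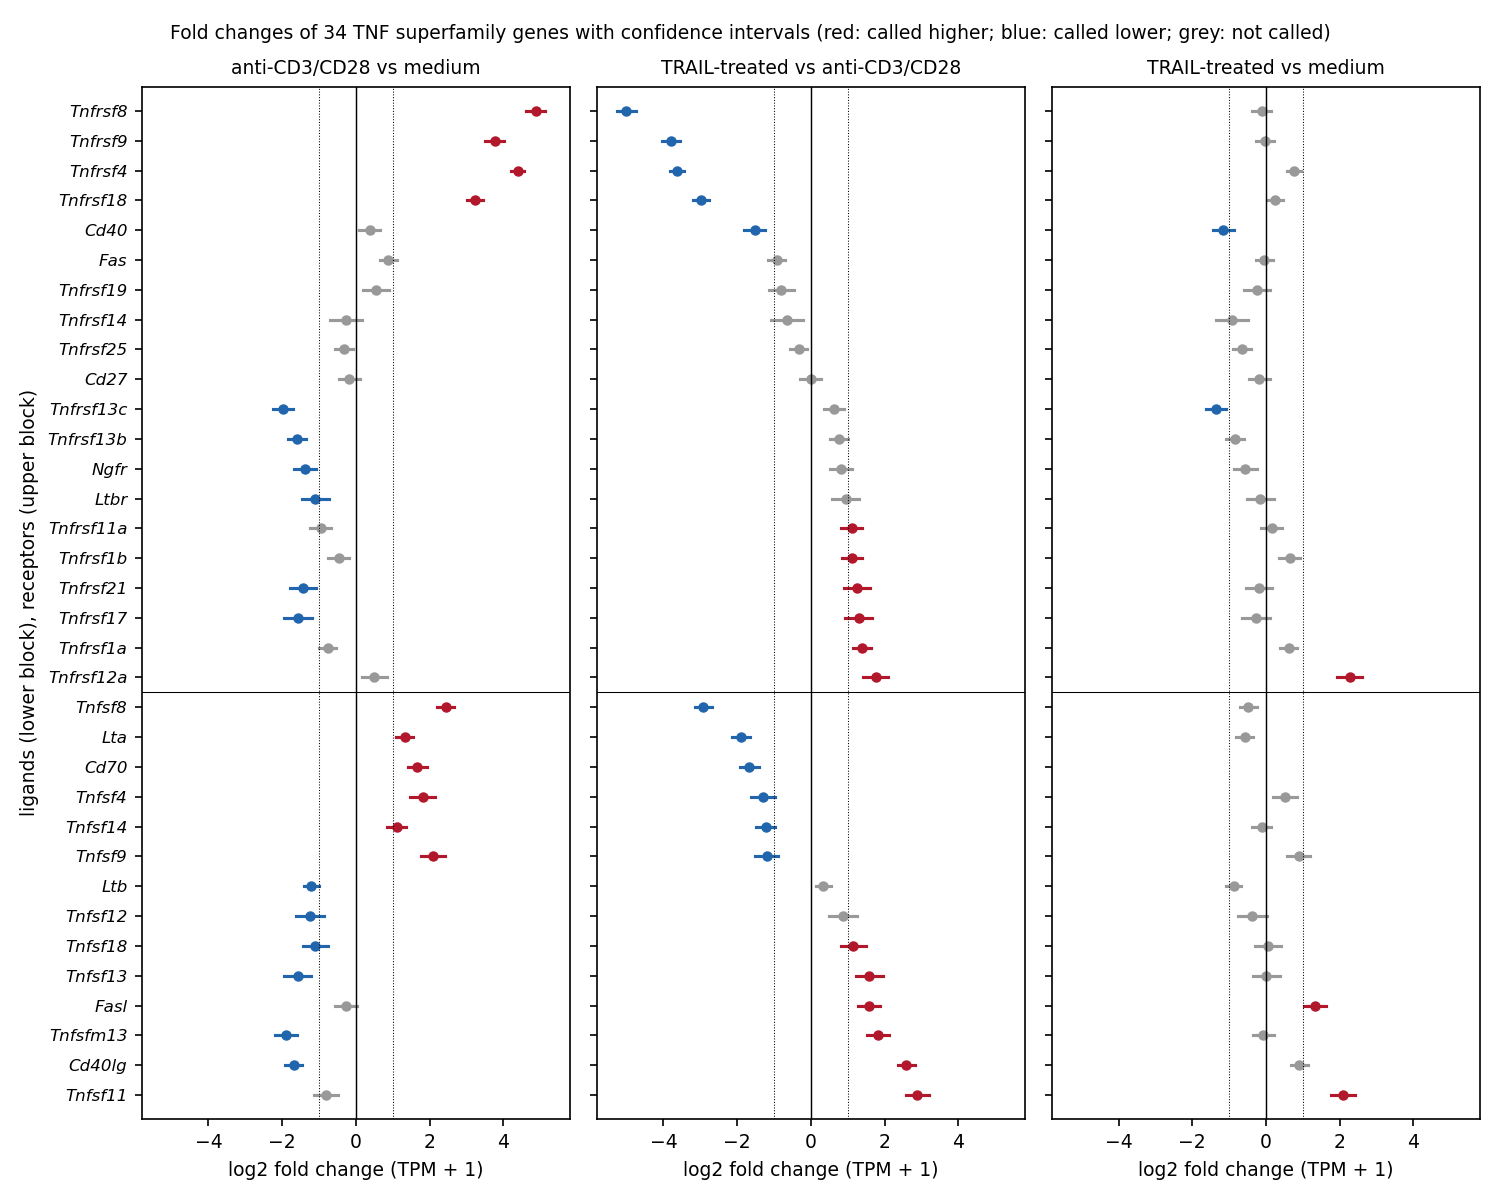
Log2 fold changes of the 34 tested members on the log2(TPM + 1) scale in the 3 comparisons, with bars for the 95% confidence interval from limma (3 libraries per group), in red where called higher, blue where called lower and grey where not called. Dotted lines mark the threshold of 1 on size. Tnfrsf8, Tnfrsf4, Tnfrsf9 and Tnfrsf18 lie far to the right for activated against medium, between 3.23 and 4.89, and far to the left for TRAIL-treated activated against activated.

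Of the 7 costimulatory receptors, Tnfrsf4, Tnfrsf9, Tnfrsf18 and Tnfrsf8 were higher in activated than in medium T cells and none was lower. Between TRAIL-treated activated and activated T cells, these 4 were lower and none was higher. None of the 7 was called between TRAIL-treated activated and medium libraries, beside 4.62% of all genes. The 4 made up 57.1% of the 7 in either comparison with activated libraries. Beside this, 31.9% of all genes were called on activation and 30.9% with TRAIL. Tnfrsf4 encodes OX40, which is induced on activated CD4+ T cells and supports their survival. Tnfrsf4 stood at 49.4, 48.1 and 53.0 TPM in medium, 1025, 1076 and 1119 TPM in activated, and 84.5, 83.8 and 87.9 TPM in TRAIL-treated activated libraries. The 3 groups did not overlap, with TRAIL-treated activated libraries just above medium. The ratio of activated to medium means was 21.4 (log2 fold change 4.39 ± 0.08 SE, limma adjusted p = 1.9e-10), and Tnfrsf4 fell by 3.64 ± 0.08 with TRAIL (adjusted p = 5.1e-10). TRAIL-treated activated libraries remained 0.76 ± 0.08 above medium (adjusted p = 0.00015), short of the threshold on size.

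Tnfrsf18, which encodes GITR, a receptor carried by regulatory T cells and raised on other T cells by activation, followed the same order. Its values were 61.2, 49.8 and 60.2 TPM in medium, 560.0, 522 and 545 TPM in activated, and 65.3, 66.4 and 70.9 TPM in TRAIL-treated activated libraries. Tnfrsf18 rose 9.51-fold on activation (log2 fold change 3.23 ± 0.10, limma adjusted p = 2e-09) and fell by 2.99 ± 0.10 with TRAIL (adjusted p = 4.1e-09). Its exons overlap an antisense gene, Gm16008, and reads of both cannot be told apart unless strand was used in counting. The level in TRAIL-treated activated libraries was 0.24 above medium with a 95% interval of 0.02 to 0.46 (adjusted p = 0.083).

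Tnfrsf9 encodes 4-1BB, an activation-induced receptor that also serves as a marker of recently stimulated T cells. It measured 25.7, 23.1 and 22.7 TPM in medium, 337, 326 and 347 TPM in activated, and 22.6, 20.5 and 27.3 TPM in TRAIL-treated activated libraries. Activated libraries were 14.1-fold above medium (log2 fold change 3.77 ± 0.11, limma adjusted p = 1.8e-09), and Tnfrsf9 fell by 3.80 ± 0.11 with TRAIL (adjusted p = 2.2e-09). Medium and TRAIL-treated activated libraries overlapped, and their difference of -0.03, with an interval from -0.28 to 0.22, changed sign with the scaling.

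Tnfrsf8 encodes CD30, a receptor of activated lymphocytes. Its TPM was 1.29, 1.34 and 1.27 in medium, 58.5, 72.1 and 71.5 in activated, and 1.17, 1.07 and 1.11 in TRAIL-treated activated libraries. Activated libraries were far above the others, and TRAIL-treated activated libraries lay just below medium. The ratio of activated to medium means was 51.8, the largest of the members above the floor of the table in medium (log2 fold change 4.89 ± 0.12, limma adjusted p = 4.7e-10). It fell by 5.01 ± 0.12 with TRAIL (adjusted p = 5.7e-10). The difference of TRAIL-treated activated from medium libraries was -0.12 with an interval from -0.38 to 0.14.

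**Figure D2:**
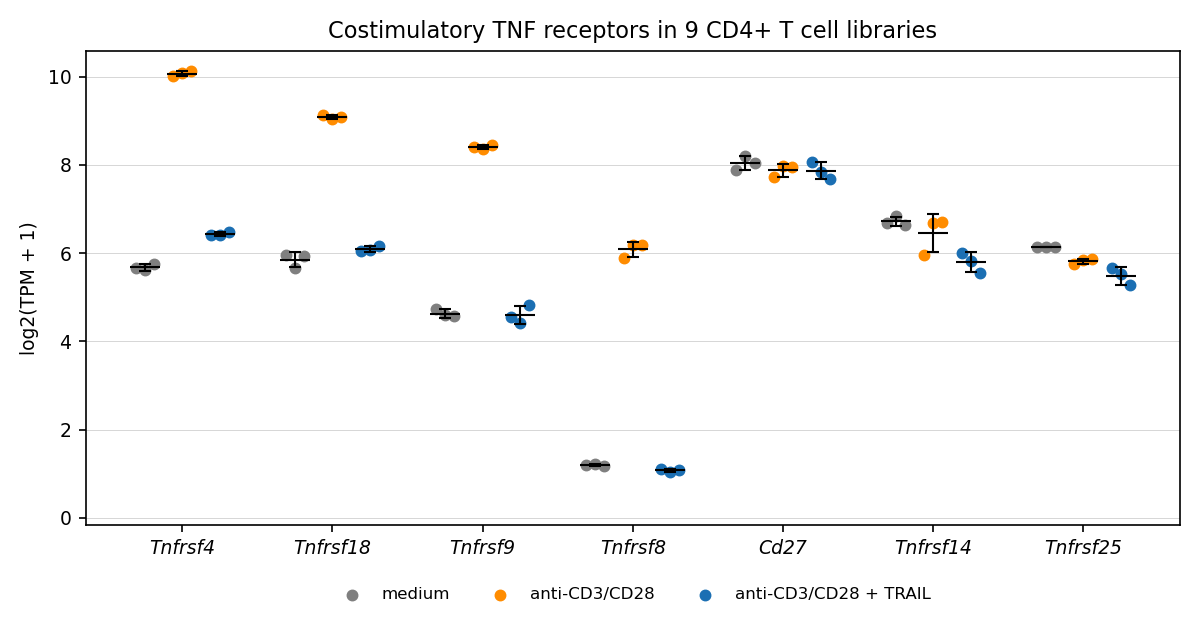
Log2(TPM + 1) of the 7 costimulatory receptors in each of the 9 libraries, with points for libraries, long lines for the group mean and error bars for the SD. Tnfrsf4, Tnfrsf18, Tnfrsf9 and Tnfrsf8 stand apart in the activated group, whereas the Cd27 groups overlap, with means of 265, 234 and 233 TPM.

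The other 3 costimulatory receptors were not called in any comparison. Cd27, which is carried by naive T cells and binds CD70, averaged 265 ± 28.5 TPM (SD, n = 3) in medium, 234 ± 21.9 TPM in activated and 233 ± 32.1 TPM in TRAIL-treated activated libraries. The groups overlapped, and the 95% intervals of the log2 differences ran from -0.46 to 0.11 for activated against medium and from -0.29 to 0.27 for TRAIL-treated activated against activated. Tnfrsf14, the herpesvirus entry mediator that binds LIGHT and also the inhibitory receptor BTLA, averaged 105 ± 7.95, 88.9 ± 24.4 and 54.9 ± 8.43 TPM. Tnfrsf14 in TRAIL-treated activated libraries was 0.93 below medium (adjusted p = 0.0063, limma), and without TRAIL-treated activated replicate 1 this difference was -1.03 and was called. Tnfrsf25, the death domain receptor DR3 that binds TL1A, averaged 69.2 ± 0.102, 55.4 ± 2.41 and 44.0 ± 6.05 TPM, with adjusted p of 0.0235, 0.0190 and 0.0018 and no change reaching the threshold on size.

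GITR and OX40 are also carried by regulatory T cells. A list of 8 regulatory T cell markers summed to 181 to 196 TPM in medium, 1014 to 1283 TPM in activated and 278 to 308 TPM in TRAIL-treated activated libraries. Most of that rise was Il2ra, the receptor subunit CD25 that activation also raises, at 24.0 ± 1.96, 868 ± 126 and 23.2 ± 2.25 TPM. The list was divided in direction, with 3 of 8 markers higher and 3 lower in activated than in medium libraries, and 3 higher and 2 lower with TRAIL. Ctla4, at 65.4, 244 and 171 TPM, and Lrrc32, at 7.84, 24.7 and 19.7 TPM, were higher on activation, as Il2ra was. Ikzf2, at 24.2, 6.90 and 23.8 TPM, Nrp1, at 18.7, 2.37 and 18.1 TPM, and Itgae, at 9.89, 1.04 and 6.55 TPM, were lower on activation and higher with TRAIL. Gpr83, at 11.5, 17.3 and 8.21 TPM, was called lower with TRAIL. Foxp3, the defining factor of these cells, measured 29.1 ± 5.37, 25.5 ± 5.90 and 25.1 ± 2.83 TPM, and its groups overlapped. The part of regulatory T cells in the changes of Tnfrsf4 and Tnfrsf18 was not tested.

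Of the 4 death domain receptors listed apart from DR3, Tnfrsf21 and Ngfr were called lower in activated than in medium T cells, and Tnfrsf1a and Tnfrsf21 were higher with TRAIL. Tnfrsf1a, the main receptor for soluble TNF, stood at 31.6, 37.7 and 29.3 TPM in medium, 19.5, 18.5 and 18.5 TPM in activated, and 51.8, 51.2 and 48.9 TPM in TRAIL-treated activated libraries. The 3 groups did not overlap, with activated lowest and TRAIL-treated activated highest. Tnfrsf1a was 1.38 ± 0.11 higher with TRAIL than without (limma adjusted p = 1.3e-06, ratio 2.69), and its differences of -0.76 on activation and 0.62 between TRAIL-treated activated and medium libraries did not reach the threshold on size.

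Tnfrsf21, or death receptor 6, which restrains helper T cell responses in mice, measured 12.4, 16.4 and 11.6 TPM in medium, 3.56, 5.13 and 4.29 TPM in activated, and 10.4, 12.9 and 11.3 TPM in TRAIL-treated activated libraries. It fell by 1.44 ± 0.16 on activation (limma adjusted p = 2.1e-05) and was 1.24 ± 0.16 higher with TRAIL (adjusted p = 6e-05), with medium and TRAIL-treated activated libraries overlapping. Tnfrsf1a and Tnfrsf21 were lowest in activated libraries, where the summed myeloid markers were also lowest, at means of 2471 TPM in medium, 84.8 TPM in activated and 1907 TPM in TRAIL-treated activated libraries. Fas, the receptor of Fas ligand through which activated T cells are removed, averaged 33.5 ± 4.04, 62.4 ± 1.68 and 32.4 ± 0.130 TPM. The activated libraries of Fas, at 60.6 to 63.9 TPM, lay above all others. The differences of 0.88 on activation (adjusted p = 2.6e-05, limma) and -0.93 with TRAIL (adjusted p = 1.9e-05) fell just short of the threshold on size, and the first was 1.04 and called under median-of-ratios scaling. Ngfr, the low-affinity neurotrophin receptor, was present at 1.22 to 1.94 TPM in medium and 0.648 to 0.887 TPM in TRAIL-treated activated libraries and was listed at 0.0001 TPM, the lowest value of the table, in all 3 activated libraries. A value at that floor can also be a failed estimate, so no ratio is given for it. Ngfr passed the filter through the medium group alone, so that its direction on activation, although counted, was fixed by the filter.

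The receptors for TNF and lymphotoxin without a death domain showed the same order of groups as Tnfrsf1a or Tnfrsf21. Tnfrsf1b, the TNF receptor carried by lymphocytes and prominent on regulatory T cells, measured 49.2, 60.8 and 50.3 TPM in medium, 33.1, 42.7 and 39.3 TPM in activated, and 85.6, 89.4 and 76.4 TPM in TRAIL-treated activated libraries. It was 1.11 ± 0.13 higher with TRAIL than without (limma adjusted p = 2.2e-05). Ltbr, the lymphotoxin beta receptor, which is carried by stromal and myeloid cells rather than lymphocytes, measured 4.70, 7.03 and 5.76 TPM in medium, 2.29, 1.76 and 2.50 TPM in activated, and 4.67, 6.19 and 4.56 TPM in TRAIL-treated activated libraries. Its fall of 1.09 ± 0.17 on activation (adjusted p = 0.00021) lost the call without medium replicate 2 (-0.97) or without activated replicate 2 (-0.99) and under median-of-ratios scaling (-0.96) or quantile normalization (-0.71), all below the threshold on size. With TRAIL its difference was 0.94 ± 0.17 (adjusted p = 0.0006), and it was called without activated replicate 3 (1.02), without TRAIL-treated activated replicate 3 (1.01) and with a pseudocount of 0.1 (1.20). All 14 myeloid markers were lower in activated than in medium libraries, with a median log2 fold change of -5.13, and all 14 were higher with TRAIL than without. Among them was Csf1r, the receptor of macrophage colony-stimulating factor, at 156 ± 29.7, 2.08 ± 0.334 and 147 ± 10.3 TPM.

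Of the 4 receptors best known from B cells and antigen-presenting cells, Tnfrsf13b, Tnfrsf13c and Cd40 had group means from 15.9 to 128 TPM, and Tnfrsf17 had group means from 0.0229 to 2.07 TPM. TACI (Tnfrsf13b) and the BAFF receptor (Tnfrsf13c) bind the B cell survival factors BAFF and APRIL or BAFF alone, BCMA (Tnfrsf17) belongs to plasma cells, and CD40 receives the helper signal of CD40 ligand. Tnfrsf13b measured 122, 133 and 128 TPM in medium, 36.1, 46.8 and 42.2 TPM in activated, and 77.2, 71.1 and 64.8 TPM in TRAIL-treated activated libraries. Tnfrsf13c measured 79.2, 104 and 90.8 TPM, then 20.2, 23.4 and 23.4 TPM, then 35.6, 38.1 and 31.5 TPM in the same order. Neither gene had overlapping groups, with medium highest and activated lowest. On activation Tnfrsf13b fell by 1.60 ± 0.11 (limma adjusted p = 6.7e-07) and Tnfrsf13c by 1.98 ± 0.12 (adjusted p = 2.7e-07). Tnfrsf13c in TRAIL-treated activated libraries was also called lower than in medium (-1.35 ± 0.12, adjusted p = 5.1e-05).

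The summed B cell markers had the same order of groups as Tnfrsf13b and Tnfrsf13c. With TRAIL, Tnfrsf13b was 0.76 ± 0.11 higher (limma adjusted p = 0.00017) and Tnfrsf13c 0.63 ± 0.12 higher (adjusted p = 0.0012). Neither change was called, nor was the -0.84 ± 0.11 of Tnfrsf13b against medium (adjusted p = 0.00059). All 10 B cell markers were called lower in activated than in medium libraries. With TRAIL 9 were called higher, at a median of 2.40 over the list, and 7 were lower in TRAIL-treated activated than in medium libraries. As a percentage of the medium mean, the summed B cell markers were 8.36 ± 0.456% in activated and 43.6 ± 2.85% in TRAIL-treated activated libraries, Tnfrsf13b was 32.7 ± 4.22% and 55.7 ± 4.85%, and Tnfrsf13c was 24.5 ± 2.01% and 38.4 ± 3.67%. In activated libraries both receptors, at 22.1% or more in each library, lay above the B cell markers, at 8.88% or less. Tnfrsf17 averaged 2.07 ± 0.629 TPM in medium and 1.51 ± 0.257 TPM in TRAIL-treated activated libraries and was at the floor in 2 of 3 activated libraries. It stayed below 1 TPM in every activated library, so that the filter favoured its direction in both comparisons with that group. Of 5 plasma cell markers, 2 were lower in activated than in medium libraries, Jchain at 342, 12.0 and 316 TPM and Sdc1 at 6.77, 0.990 and 4.95 TPM, and both were higher with TRAIL. Xbp1, at 78.6, 301 and 110.5 TPM, and Prdm1, at 6.35, 14.1 and 6.24 TPM, which activated T cells also express, went the other way in both comparisons. Mzb1, at 65.0, 46.7 and 42.2 TPM, was not called. The summed list ran from 458 to 577, from 359 to 389 and from 453 to 510.1 TPM.

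Cd40 departed from this order. It measured 42.6, 36.0 and 31.8 TPM in medium, 46.1, 54.3 and 43.2 TPM in activated, and 17.2, 16.0 and 14.6 TPM in TRAIL-treated activated libraries. Activated libraries were the highest, at 130 ± 15.6% of the medium mean, and TRAIL-treated activated libraries the lowest, at 43.3 ± 3.45%. Cd40 fell by 1.53 ± 0.13 with TRAIL (limma adjusted p = 3.2e-06), and its difference of -1.15 ± 0.13 between TRAIL-treated activated and medium libraries (adjusted p = 0.00022) moved to -0.98 under median-of-ratios scaling, where it was not called.

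**Figure D3:**
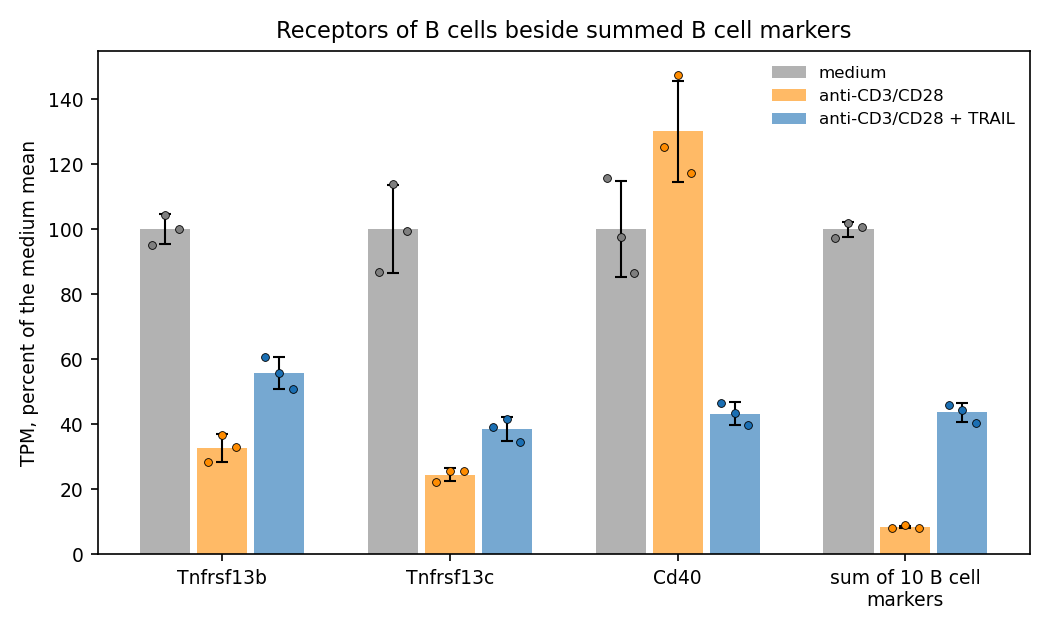
Levels of Tnfrsf13b, Tnfrsf13c, Cd40 and the summed 10 B cell markers as a percentage of their medium mean in each library, with points for libraries, bars for group means and error bars for the SD. The B cell markers reach 8.36% in activated libraries, where Cd40 is at 130%, and the 4 group means lie between 38.4% and 55.7% in TRAIL-treated activated libraries.

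Among the remaining receptors, Tnfrsf12a stood out. Tnfrsf12a (chr17:23675445-23677468) encodes Fn14, the receptor of TWEAK, which is known as an inducible gene of injured tissues. It measured 3.21, 4.72 and 4.13 TPM in medium, 6.22, 6.67 and 5.37 TPM in activated, and 19.9, 23.3 and 26.0 TPM in TRAIL-treated activated libraries. Every TRAIL-treated activated library lay above every other library. Tnfrsf12a was 3.79-fold higher in TRAIL-treated activated than in activated libraries (log2 fold change 1.76 ± 0.15, limma adjusted p = 2.9e-06) and 5.74-fold higher than in medium (2.27 ± 0.15, adjusted p = 5.7e-06). It was the only receptor called higher in TRAIL-treated activated than in medium libraries. RANK (Tnfrsf11a), known from osteoclasts and dendritic cells, averaged 1.57 ± 0.143, 0.327 ± 0.0347 and 1.88 ± 0.369 TPM and was called higher with TRAIL (1.11 ± 0.13, adjusted p = 3.1e-05), a call that was lost at 0.69 under quantile normalization. Tnfrsf11a stayed below 1 TPM in every activated library, so that the filter favoured this direction. The summed dendritic cell markers, at means of 63.2, 11.9 and 38.4 TPM, and the myeloid markers were lowest in activated libraries as well. Tnfrsf19, or TROY, averaged 1.20 ± 0.236, 2.24 ± 0.560 and 0.844 ± 0.106 TPM and was not called, although its difference of -0.80 with TRAIL was -1.15 and called under quantile normalization and -1.29 and called with a pseudocount of 0.1.

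Of the 8 ligands known as T cell products, 4 were higher and 2 lower in activated than in medium T cells (75.0%, beside 31.9% of all genes). With TRAIL, 3 were higher and 4 lower than in activated cells (87.5%, beside 30.9% of all genes). Cd40lg, by which helper T cells license B cells and dendritic cells, measured 102, 115 and 95.0 TPM in medium, 29.7, 34.1 and 31.1 TPM in activated, and 202, 203 and 182 TPM in TRAIL-treated activated libraries. The groups did not overlap, with activated lowest and TRAIL-treated activated highest. Cd40lg fell by 1.68 ± 0.10 on activation (limma adjusted p = 2.1e-07) and was 6.18-fold higher with TRAIL than without (2.59 ± 0.10, adjusted p = 1.2e-08). Its difference of 0.91 ± 0.10 from medium (adjusted p = 0.0002) was 1.09 and called under median-of-ratios scaling.

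Tnfsf11 (chr14:78277445-78308043) encodes RANK ligand, which T cells can present to osteoclast precursors and dendritic cells. It measured 10.1, 7.13 and 7.62 TPM in medium, 4.44, 4.80 and 3.59 TPM in activated, and 35.3, 38.2 and 40.7 TPM in TRAIL-treated activated libraries. The TRAIL-treated activated libraries were 8.90-fold above activated (log2 fold change 2.89 ± 0.15, limma adjusted p = 6.2e-08) and 4.60-fold above medium (2.09 ± 0.15, adjusted p = 8e-06). Fasl, the death ligand that kills Fas-bearing cells, showed the same order. Fasl (chr1:161780689-161788495) measured 14.2, 11.8 and 12.2 TPM in medium, 9.85, 11.2 and 10.3 TPM in activated, and 29.4, 31.6 and 39.9 TPM in TRAIL-treated activated libraries. It was 3.22-fold higher with TRAIL than without (1.59 ± 0.13, adjusted p = 2.4e-06) and 2.64-fold higher than in medium (1.32 ± 0.13, adjusted p = 9.1e-05), whereas activation without TRAIL gave a difference of -0.26 with an interval from -0.56 to 0.03. Cells of the NK lineage also make Fas ligand, and 5 NK markers summed to 129 to 168 TPM in medium, 19.7 to 23.4 TPM in activated and 40.5 to 44.5 TPM in TRAIL-treated activated libraries. The CD8 T cell markers Cd8a and Cd8b1 summed to 110 to 118, 94.2 to 105 and 46.9 to 49.4 TPM.

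Tnfsf8, Lta and Tnfsf14 were highest in activated libraries. Tnfsf8, the ligand of CD30, measured 28.5, 25.9 and 29.1 TPM in medium, 159, 159 and 149 TPM in activated, and 22.5, 19.1 and 17.7 TPM in TRAIL-treated activated libraries. It rose 5.59-fold on activation (log2 fold change 2.44 ± 0.10, limma adjusted p = 1.7e-08) and fell by 2.92 ± 0.10 with TRAIL (adjusted p = 6.8e-09). Lta, which encodes lymphotoxin alpha, measured 29.7, 35.5 and 29.3 TPM, then 79.2, 85.7 and 75.8 TPM, then 21.3, 21.7 and 19.2 TPM in the same order of groups. In Tnfsf8 and Lta all 3 TRAIL-treated activated libraries lay below all medium libraries, with differences of -0.48 (adjusted p = 0.0072) and -0.58 (adjusted p = 0.0032) that did not reach the threshold on size. On activation Lta rose by 1.32 ± 0.11 (adjusted p = 1.7e-06), and it fell by 1.90 ± 0.11 with TRAIL (adjusted p = 1.4e-07).

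Tnfsf14 encodes LIGHT, a ligand of HVEM and the lymphotoxin beta receptor. It measured 11.0, 9.48 and 10.0 TPM in medium, 21.0, 25.6 and 22.8 TPM in activated, and 9.65, 10.00 and 8.26 TPM in TRAIL-treated activated libraries. Tnfsf14 rose by 1.11 ± 0.12 on activation (limma adjusted p = 1.5e-05) and fell by 1.23 ± 0.12 with TRAIL (adjusted p = 7.2e-06), and medium and TRAIL-treated activated libraries overlapped. Cd70, the ligand of CD27, was listed at 0.0001 TPM in all medium and all TRAIL-treated activated libraries and measured 2.35, 2.30 and 1.91 TPM in activated libraries. Cd70 passed the filter through the activated group alone, so that its inclusion among the tested members fixed its direction. It is in the counts of calls in both comparisons with activated libraries, and no ratio is given because the other groups were at the floor.

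Ltb, which encodes the membrane anchor of the lymphotoxin heterotrimer, was the most abundant ligand in every library. It measured 577, 595 and 599.8 TPM in medium, 273, 252 and 240.0 TPM in activated, and 322, 351 and 294 TPM in TRAIL-treated activated libraries. The groups did not overlap, with medium highest. Ltb fell by 1.21 ± 0.09 on activation (limma adjusted p = 1.3e-06), and TRAIL-treated activated libraries were 0.34 ± 0.09 above activated ones (adjusted p = 0.009), short of the threshold on size. Ltb and Lta lie 6.8 kb apart on chromosome 17 and were called in opposite directions on activation.

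**Figure D4:**
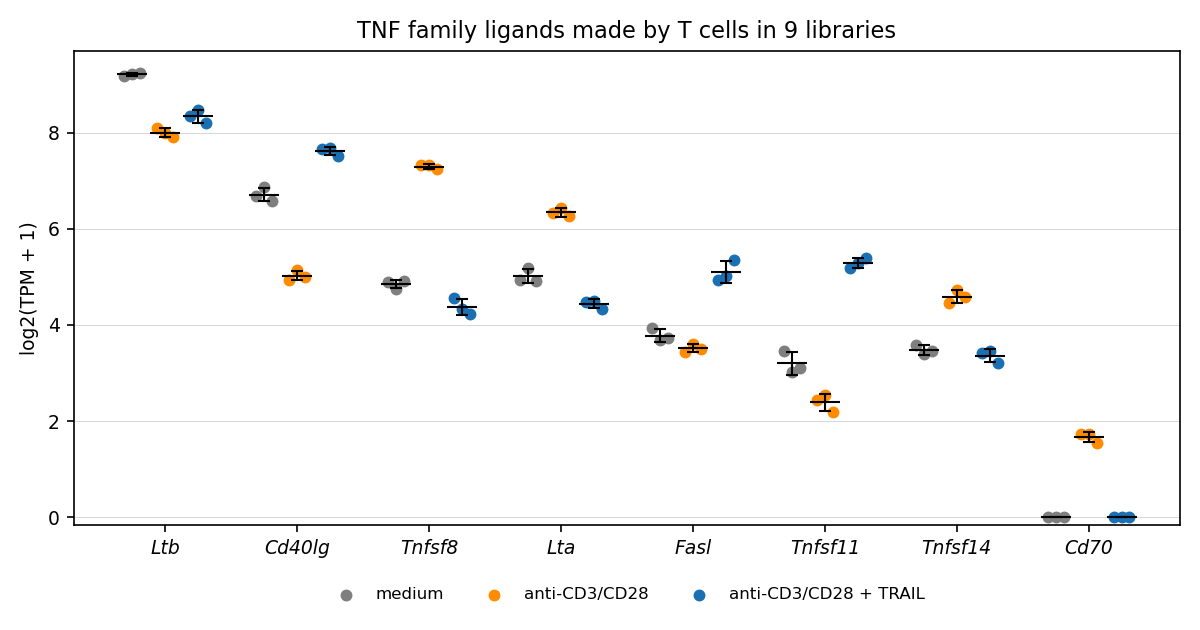
Log2(TPM + 1) of the 8 T cell ligands in each of the 9 libraries, with points for libraries, long lines for the group mean and error bars for the SD. Cd40lg, Tnfsf11 and Fasl are highest in TRAIL-treated activated libraries, at group means of 196, 38.1 and 33.6 TPM, whereas Tnfsf8, Lta and Tnfsf14 are highest in activated libraries, at 156, 80.2 and 23.1 TPM.

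Of the 6 tested ligands known from antigen-presenting and other cells, 2 were higher and 4 lower in activated than in medium T cells, beside 31.9% of all genes called. With TRAIL, 3 were higher and 2 lower (83.3%, beside 30.9% of all genes). The 2 that rose on activation encode the partners of 4-1BB and OX40. Tnfsf9, the 4-1BB ligand, measured 1.75, 1.96 and 2.23 TPM in medium, 10.2, 14.2 and 10.9 TPM in activated, and 4.09, 4.76 and 4.72 TPM in TRAIL-treated activated libraries. Its 3 groups did not overlap, and TRAIL-treated activated libraries lay between the others. Tnfsf9 rose 5.95-fold on activation (log2 fold change 2.09 ± 0.14, limma adjusted p = 5e-07) and fell by 1.20 ± 0.14 with TRAIL (adjusted p = 3.2e-05), to a level 0.89 ± 0.14 above medium (adjusted p = 0.0015) that was 1.02 above it, and called, under median-of-ratios scaling. Its exons overlap the opposite-strand gene Gm11110. Tnfsf4, the OX40 ligand, averaged 0.471 ± 0.116 TPM in medium, 4.17 ± 0.189 TPM in activated and 1.12 ± 0.365 TPM in TRAIL-treated activated libraries, with changes of 1.81 ± 0.15 (adjusted p = 2e-06) and -1.30 ± 0.15 (adjusted p = 2.6e-05). Tnfsf4 reached 1 TPM in no medium library and would not have passed the filter without the activated group. Its direction in both comparisons, although counted, was therefore favoured by the filter.

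The other 4 were near 1 to 3 TPM in medium and lower in activated libraries. All 4 stayed below 1 TPM in every activated library and passed the filter through the other groups. Their direction in both comparisons with activated libraries, although counted, was therefore favoured by the filter. Tnfsf12, which encodes TWEAK, averaged 2.34 ± 0.689, 0.404 ± 0.139 and 1.57 ± 0.272 TPM. Tnfsf13, which encodes APRIL, averaged 2.23 ± 0.685, 0.0650 ± 0.0339 and 2.20 ± 0.243 TPM. Tnfsfm13, a read-through gene over Tnfsf12 and Tnfsf13, averaged 2.77 ± 0.478 TPM in medium and 2.57 ± 0.201 TPM in TRAIL-treated activated libraries and was at the floor in 2 of 3 activated libraries. These 3 genes share exons on chromosome 11, so the division of reads among them is uncertain. Tnfsf18, the GITR ligand, averaged 1.16 ± 0.168 TPM in medium and 1.27 ± 0.413 TPM in TRAIL-treated activated libraries and was at the floor in 2 of 3 activated libraries. Tnfsf12 and Tnfsf18 lost their calls under quantile normalization. In the same comparison all 14 myeloid markers and 6 of the 7 dendritic cell markers were lower in activated than in medium libraries, among them Itgax, the integrin CD11c, at 29.8 ± 2.77, 3.06 ± 0.813 and 16.6 ± 0.667 TPM. The seventh dendritic cell marker, the transcription factor gene Zbtb46, went the other way, at 2.44 ± 0.137, 5.86 ± 0.785 and 1.20 ± 0.166 TPM, and was called lower with TRAIL. With TRAIL, 4 of the 7 dendritic cell markers were called higher.

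Summed over members, receptor transcripts amounted to 976 ± 52.3 TPM in medium, 2645 ± 99.2 TPM in activated and 844 ± 51.4 TPM in TRAIL-treated activated libraries (SD, n = 3). Ligand transcripts summed to 797 ± 15.5, 579 ± 24.8 and 653 ± 36.3 TPM. The order among receptors also changed. Cd27 was the most abundant receptor in medium libraries, with 25.3 to 28.4% of the receptor sum, and in TRAIL-treated activated libraries, with 25.9 to 30.0%, whereas in activated libraries it was Tnfrsf4, with 40.3 to 41.0%. Ltb made up 73.1 to 75.5% of the ligand sum in medium, 42.4 to 46.0% in activated and 47.8 to 51.0% in TRAIL-treated activated libraries. Behind Ltb, the next ligands were Cd40lg and Lta in medium, Tnfsf8 and Lta in activated, and Cd40lg and Tnfsf11 in TRAIL-treated activated libraries.

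Ligands and receptors that bind each other did not share a pattern in all cases. CD30 ligand and CD30 both had their highest means in activated libraries, at 156 and 67.4 TPM, and so did 4-1BB ligand and 4-1BB, at 11.8 and 337 TPM, and OX40 ligand and OX40, at 4.17 and 1074 TPM. GITR was highest in activated libraries, with Tnfrsf18 at 542 TPM. Its ligand gene Tnfsf18 was at the floor there in 2 of 3 libraries and reached at most 1.57 TPM in any library, so no order is read for it. Fas ligand was highest with TRAIL, at 33.6 TPM, where Fas measured 32.4 TPM, near its medium mean of 33.5 TPM. CD40 ligand was highest with TRAIL, at 196 TPM, where Cd40 was lowest, at 15.9 TPM. RANK ligand and RANK both had their highest means with TRAIL, at 38.1 and 1.88 TPM, where osteoprotegerin averaged 0.0228 TPM after 0.198 TPM in activated libraries. TWEAK averaged 1.57 TPM with TRAIL, where its receptor Fn14 reached 23.1 TPM. No test of pairs was made.

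Inside the cell these receptors signal through TRAF adaptors, ubiquitin ligases and the kinases of the NF-kB pathways. Of 28 such genes, all tested, 4 were higher and 2 lower in activated than in medium T cells (21.4%, beside 31.9% of all genes), 2 were higher and 1 lower with TRAIL (10.7%, beside 30.9%), and 1 was higher in TRAIL-treated activated than in medium libraries (3.57%, beside 4.62%). Against medium, 2 of the 28 were called higher with TRAIL under median-of-ratios scaling and also under quantile normalization. With TRAIL, 2 in place of 1 were lower without activated replicate 3 or without TRAIL-treated activated replicate 1 or 2. Traf1, an adaptor of 4-1BB and CD30 that NF-kB induces, averaged 75.6, 183 and 92.0 TPM, and rose by 1.27 ± 0.10 on activation (limma adjusted p = 1.6e-06). Nfkb2 and Relb, the subunits of the alternative NF-kB pathway, averaged 68.9, 196 and 72.8 TPM and 31.5, 69.6 and 35.8 TPM. Nfkb2 rose by 1.49 ± 0.10 (adjusted p = 4.3e-07) and fell by 1.41 ± 0.10 with TRAIL (adjusted p = 6.9e-07). Relb rose by 1.12 ± 0.10 on activation (adjusted p = 4e-06). Traf4 averaged 41.6, 96.8 and 76.8 TPM and rose by 1.20 ± 0.10 on activation (adjusted p = 3.2e-06).

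Traf5, an adaptor of OX40, CD27 and CD30, was lowest in activated libraries, where Tnfrsf4 and Tnfrsf8 were highest and where Cd27 was not called. Traf5 measured 75.4, 96.4 and 79.8 TPM in medium, 13.3, 15.9 and 14.6 TPM in activated, and 82.7, 71.4 and 67.1 TPM in TRAIL-treated activated libraries. It fell by 2.44 ± 0.12 on activation (limma adjusted p = 6.1e-08) and was 2.26 ± 0.12 higher with TRAIL (adjusted p = 1.2e-07). Ikbkb, the kinase IKK-beta of the canonical pathway, averaged 182, 78.1 and 140.4 TPM and fell by 1.22 ± 0.16 on activation (adjusted p = 7.2e-05). Tnfaip3, which encodes A20, an NF-kB target that ends TNF receptor signaling, measured 96.1, 98.4 and 82.9 TPM in medium, 94.5, 126 and 124 TPM in activated, and 696, 736 and 713 TPM in TRAIL-treated activated libraries. The TRAIL-treated activated libraries lay 6.24-fold above activated (2.64 ± 0.12, adjusted p = 3.5e-08) and 7.74-fold above medium (2.94 ± 0.12, adjusted p = 3.3e-07). Tnf, the founding ligand, which lies between Ltb and Lta, measured 16.4, 23.3 and 21.0 TPM in medium, 44.3, 40.8 and 31.4 TPM in activated, and 38.6, 45.4 and 45.8 TPM in TRAIL-treated activated libraries. Tnf was called higher only in TRAIL-treated activated against medium libraries (1.07 ± 0.16, adjusted p = 0.0011), whereas its 0.91 ± 0.16 on activation fell short of the threshold on size.

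**Figure D5:**
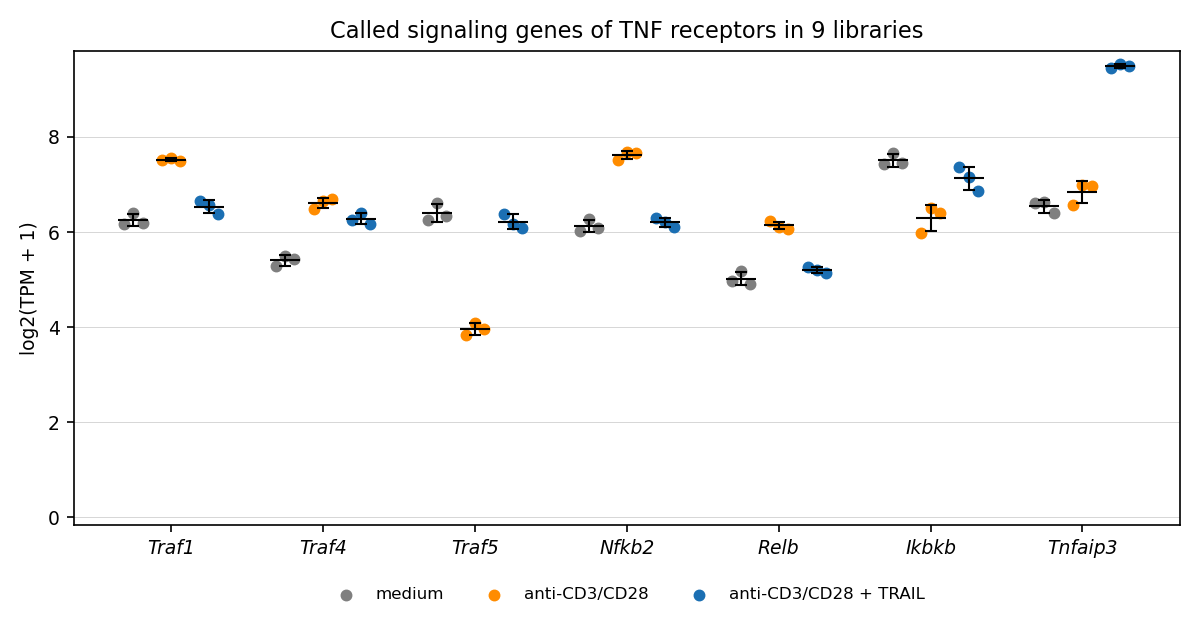
Log2(TPM + 1) of the 7 TNF receptor signaling genes that were called, in each of the 9 libraries, with points for libraries, long lines for the group mean and error bars for the SD. Tnfaip3 stands at 696 to 736 TPM in TRAIL-treated activated libraries and at 82.9 to 126 TPM in all others, and Traf5 is lowest in activated libraries, at 13.3 to 15.9 TPM.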

How the data were processed

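RNA-seq values of splenic CD4+ T cells in 3 groups of 3 libraries were used. Libraries were prepared with an mRNA kit from total RNA. Per the labels, the authors processed reads with Trimmomatic 0.36, HISAT2 2.1.0, SAMtools 1.2, StringTie 2.1.2 and DESeq2, and deposited TPM per gene. The annotation release and the strand setting are not given in the sources used here. The processing notes name a human build, GRCh38, whereas the study's methods name GRCm38, and the coordinates of 36 of the 37 members were those of GRCm38 in GENCODE M21 (all but Tnfsf15). TPM keeps no depth, so the precision from read numbers is unknown. The lowest value in the table is 0.0001 TPM, held by 57.7 to 60.2% of genes in a library.

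Samples were grouped by their treatment labels. Values were transformed to log2(TPM + 1), genes had to reach 1 TPM in 3 or more libraries, and all 9 libraries were fitted with limma 3.58.1 in R 4.3.3 (trended empirical Bayes, two-sided, Benjamini-Hochberg over 15536 genes, 3 comparisons). Limma was used because an exact rank test of 3 against 3 libraries cannot give a p below 0.1. The fit was tested on simulated data. Members called in any comparison and averaging 5 TPM or more in any group are given library by library, and other members by means or ranges. Cd70, which averaged less, is also given library by library. Signaling genes are named if called and averaging 10 TPM or more. The members and gene lists were chosen with earlier results of these data known. Alternatives were 2 other pseudocounts, 2 other filters, 2 other scalings, no trend, 2 groups alone, a replicate block, no threshold on size, and leaving out each library. Promoters came from RefSeq (GRCm38.p6).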

Additional observations from a re-analysis of the deposited data

How the results depend on the processing

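The member counts, given as higher and lower, were unchanged for fits with no trend, with the 2 compared groups alone, with no filter and with the replicate number as a block (10 and 12 for activated against medium, 12 and 11 for TRAIL-treated activated against activated, 3 and 2 for TRAIL-treated activated against medium). The replicate numbers are not stated to mark a shared mouse or day, same-numbered libraries deviated together with correlations from -0.306 to 0.295, and the numbers were not taken as pairs. Leaving out each library gave 9 to 10 and 10 to 12, 12 to 13 and 10 to 11, and 3 to 3 and 2 to 3, in that order; Cd70 could not be tested without an activated library, nor Ngfr without a medium library, since each then had too few libraries at 1 TPM. With a pseudocount of 5, which shrinks low genes, 4 members were lower on activation, 6 were higher and 7 lower with TRAIL, and 1 was lower against medium. The counts over all genes fell as well, from 1926 to 1250 higher and from 3033 to 1696 lower on activation and from 2580 to 1412 higher and from 2220 to 1471 lower with TRAIL. The filter at 5 TPM, which tests fewer members, left 6 lower on activation and 7 higher with TRAIL. Against medium, TRAIL-treated activated cells had 5 members higher with a pseudocount of 0.1 and under median-of-ratios scaling and quantile normalization, 1 lower under both scalings, and 9 higher and 9 lower with no threshold on size. Over all genes, that comparison gave 387 higher and 331 lower, and 523 higher and 186 lower under median-of-ratios scaling, quantile normalized 526 and 219, and 553 and 614 with a pseudocount of 0.1, and 216 and 116 with 5. Of 1875 alternative values of 101 member fold changes, 1766 kept their direction and side of the threshold, 32 lost and 49 gained a call, and 28 changed sign, none of them called as reported. Beyond the pseudocount of 5, calls were lost by Cd40 against medium (median-of-ratios scaling and quantile normalization), by Ltbr on activation (both scalings, and without medium or activated replicate 2), and by Tnfsf12, Tnfsf18 and Tnfrsf11a (quantile normalization). With a pseudocount of 0.1, calls were gained by Tnfrsf11a on activation, by Ltbr, Ngfr, Tnfrsf19 and Tnfsf12 with TRAIL, and by Tnfsf4 and Tnfsf9 against medium, and Tnfrsf11a on activation was also called without medium replicate 3. Those that changed sign were, for TRAIL-treated activated against activated, Cd27 (0.014 under median-of-ratios scaling, 0.176 under quantile normalization, and -0.115 to 0.079 without single libraries). For TRAIL-treated activated against medium they were Fas (0.136, 0.125, and -0.144 to 0.013 without single libraries), Ltbr (0.005, 0.022), Tnfrsf9 (0.149, 0.160, and -0.136 to 0.061 without single libraries), Tnfsf14 (0.049, 0.091) and Tnfsfm13 (0.061, 0.034, and -0.166 to 0.018 without single libraries) under the same scalings in that order. Tnfrsf21 gave 0.013 under quantile normalization, Tnfsf13 gave -0.003 with a pseudocount of 5 and -0.166 to 0.147 without single libraries, and Tnfsf18 gave -0.042 to 0.215 without single libraries. For the changes by scaling beyond the shift of the median, the cause was not tested. Unknown depth limits what can be said of members near 1 TPM, and 3 libraries per group limit the precision of all.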
